A study of Homo sapiens with 20 samples.

Results

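The FOXO genes FOXO1, FOXO3 and FOXO4 and the forkhead genes FOXP1, FOXP4, FOXJ2, FOXJ3, FOXK1, FOXN2 and FOXN3 were examined across 5 classical Hodgkin lymphoma cell lines in which FOXO1 activity was switched on. These 10 genes were taken as the probe sets annotated to exactly 1 of the 10 symbols. Each gene had 1 such probe set, so they are 10 of 18416 genes with a probe set of a single symbol. All 10 reached a log2 value of 5 in all 20 arrays and were tested with 15850 genes in all. The lines were SUP-HD1, UHO-1, KM-H2, L428 and L1236, and all carried FOXO1(3A)ER. This protein is a mutant of human FOXO1 that AKT cannot inactivate, with the hormone-binding part of the oestrogen receptor attached. Each line was given 4-hydroxytamoxifen (4-OHT), the ligand that releases the fusion protein, or its ethanol vehicle, and RNA was taken after 24 h. Every line and treatment was measured on 2 arrays (Affymetrix Human Gene 1.0 ST), which gives 10 groups. The 4-OHT dose, 200 µM as labelled, stands in a protocol text written for a different fusion protein, and the dose of these arrays is not settled. All lines carried the fusion, vehicle arrays included, so the action of the drug alone and that of FOXO1 cannot be told apart. Nothing in the labels states that both arrays of a group stem from different cultures. The p-values therefore measure the spread between these arrays, which may be technical.

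Forkhead proteins are transcription factors that share a winged-helix DNA-binding domain. FOXO factors carry signals of growth factor withdrawal: AKT phosphorylates them, 14-3-3 proteins hold them outside the nucleus, and without that phosphorylation they enter the nucleus and activate genes of cell cycle arrest, cell death and metabolism. In B cells FOXO1 is needed for early development and for the germinal centre, FOXP1 is a regulator of B cell development that is highly expressed in some lymphomas, and FOXN3 and FOXK1 are mainly known as repressors.

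The deposited values are log2 values, and the arrays had been normalised in 2 sets: KM-H2 with L428 (8 arrays, medians of 5.67 to 5.71), and SUP-HD1, UHO-1 and L1236 (12 arrays, medians of 6.26 to 6.41). Levels of the forkhead genes were therefore compared only within a set, while each change is measured within a line. The ranges of marker genes over all arrays, given below, span both sets. The 4 arrays labelled L1236 went against that label. They held the T cell receptor genes CD3D at 11.18 to 11.37, CD3E at 12.06 to 12.25 and CD3G at 11.74 to 11.91, where the other 16 arrays held 4.72 to 5.43, 4.35 to 5.69 and 4.35 to 6.43. IRF4, a factor that Hodgkin cells express strongly, was at 6.14 to 6.49 in them and at 11.04 or above in all other arrays. Within their set, the Hodgkin marker genes TRAF1, CCL17, ID2, JUNB, FSCN1 and FUT4 also had their lowest vehicle mean in these cells. TNFRSF8 did not, at 7.76 against 7.14 in SUP-HD1. The B cell genes CD79A and CD79B had vehicle means of 9.33 and 7.37 in these cells, above UHO-1 (6.11 and 6.04) and SUP-HD1 (6.63 and 6.02). The cells are called labelled L1236 from here on, and L1236 for short in the closing section. Averages over all lines include them, and those of FOXP1, FOXO1, FOXO4, FOXN2 and FOXN3 are also given without them. The 8 Hodgkin marker genes examined reached a log2 value of 5 in all 20 arrays, as did 4 of 7 B cell genes, while the B cell gene MS4A1 did so in none. Of 4 fibroblast genes, 3 reached it in all 20 arrays too. A log2 value of 5 lies below the median of every array, so reaching it does not by itself show that a gene is expressed. The log2 values of the 5 T cell genes sum to 23 to 54.2 in vehicle and 23.2 to 53.21 in 4-OHT arrays. Those of the 4 myeloid genes sum to 17.74 to 21.78 and 17.88 to 24.03, and those of the 4 fibroblast genes to 22.82 to 25.98 and 23.15 to 26.24. Such sums of log2 values do not measure the amount of a cell type. Of the myeloid genes, CSF1R reached 5 in 20 arrays, CD14 in 19, LYZ in 3 and CD163 in none. LYZ went up to 8.07, with vehicle means of 3.25 to 4.91 by line. The part of these cell types in the changes below was not tested. In bulk RNA, fewer cells of a type and less RNA per cell cannot be told apart.

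Promoter sequences are shown for the genes whose transcripts moved most and for FOXO1 itself, because FOXO proteins bind the letters GTAAACA and related forkhead sites hold the shorter TGTTT. RefSeq gives 19 windows of 250 bases before a start for 9 of the 10 genes (build GRCh38.p14), and FOXN2 was not matched. Both strands were searched, and TGTTTAC, the other strand of GTAAACA, contains TGTTT. In the sequences, which run 5′ to 3′ towards the start of the gene, capitals mark a match to either motif on either strand.
FOXP1 start holding GTAAACA, chr3:71245078-71245327, minus strand: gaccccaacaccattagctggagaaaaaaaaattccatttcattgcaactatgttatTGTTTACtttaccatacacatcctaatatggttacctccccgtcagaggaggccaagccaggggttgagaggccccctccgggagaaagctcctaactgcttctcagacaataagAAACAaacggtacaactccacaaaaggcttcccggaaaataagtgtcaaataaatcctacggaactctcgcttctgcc
FOXP1 most upstream start, chr3:71583729-71583978, minus strand: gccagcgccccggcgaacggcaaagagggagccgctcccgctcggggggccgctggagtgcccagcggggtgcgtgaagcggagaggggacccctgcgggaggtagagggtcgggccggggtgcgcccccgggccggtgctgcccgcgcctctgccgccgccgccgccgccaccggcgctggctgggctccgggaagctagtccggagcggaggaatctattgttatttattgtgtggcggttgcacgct
FOXO1, chr13:40666642-40666891, minus strand: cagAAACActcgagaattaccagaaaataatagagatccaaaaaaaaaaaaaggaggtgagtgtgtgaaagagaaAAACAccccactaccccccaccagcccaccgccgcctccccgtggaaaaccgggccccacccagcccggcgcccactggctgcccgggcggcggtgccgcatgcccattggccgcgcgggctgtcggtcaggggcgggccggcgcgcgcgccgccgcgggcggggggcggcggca
FOXN3, chr14:89619166-89619415, minus strand: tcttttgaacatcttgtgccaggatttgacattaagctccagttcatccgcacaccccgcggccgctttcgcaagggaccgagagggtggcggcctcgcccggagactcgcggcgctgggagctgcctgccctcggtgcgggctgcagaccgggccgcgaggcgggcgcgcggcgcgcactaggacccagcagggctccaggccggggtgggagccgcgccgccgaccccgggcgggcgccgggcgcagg

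GTAAACA stood in 1 of the 19 windows, that of a FOXP1 start, where it begins 193 bases before the start. FOXP1 had 6 of the 19 windows, so it had more places for a match than a gene with 1 window. Over all genes, GTAAACA stood in 2.98% of 35116 windows, and 3.66% of 27305 genes had it in at least 1 window. TGTTT stood in 8 of the 19 windows, of FOXP1, FOXO1, FOXO3 and FOXJ3, against 40.4% of all windows. In the FOXN3 window these letters were not found. A match describes the letters of this window only, and no binding was measured.

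FOXP1 was the only member called higher in all 5 lines, and it rose from 1.97-fold to 5.24-fold (limma, Benjamini-Hochberg adjusted p from 1.17e-08 down to 4.24e-15). Of all genes tested, 0.334% were called higher in all 5 lines. In KM-H2, FOXP1 was at log2 values of 7.9 and 7.9 with vehicle and 10.11 and 10.07 with 4-OHT, a rise of 2.19 ± 0.0862 (SE of the fit, 2 arrays per arm; 4.57-fold, adjusted p = 4.24e-15). In L428 it was at 6.3 and 6.56 with vehicle and 8.47 and 8.53 with 4-OHT, a rise of 2.07 (4.20-fold, adjusted p = 3.27e-14). Both lines thus kept their order, with KM-H2 above L428 in each treatment. In UHO-1 the vehicle arrays held 7.7 and 7.64 and the 4-OHT arrays 10.09 and 10.03, a rise of 2.39 (5.24-fold, adjusted p = 6.46e-15). In SUP-HD1 they held 6.36 and 6.27 and then 8.18 and 8.22, a rise of 1.88 (3.69-fold, adjusted p = 7.76e-13). In the cells labelled L1236 they held 8.42 and 8.63 and then 9.51 and 9.5, a rise of 0.98 (1.97-fold, adjusted p = 1.17e-08). In every line the lowest 4-OHT array lay above the highest vehicle array, which 1.8% of all genes showed in the same direction in all 5 lines. On average over the lines FOXP1 rose by 1.90 ± 0.0385 (3.74-fold, adjusted p = 2.64e-20), the sixth largest rise of all genes tested, and by 2.13 without the cells labelled L1236 (adjusted p = 1.18e-18). With the 5 lines as the replicates, the same average had an SD of 0.549 over lines and an adjusted p of 0.0596, and 1 gene of all tested passed.

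**Figure D1:**
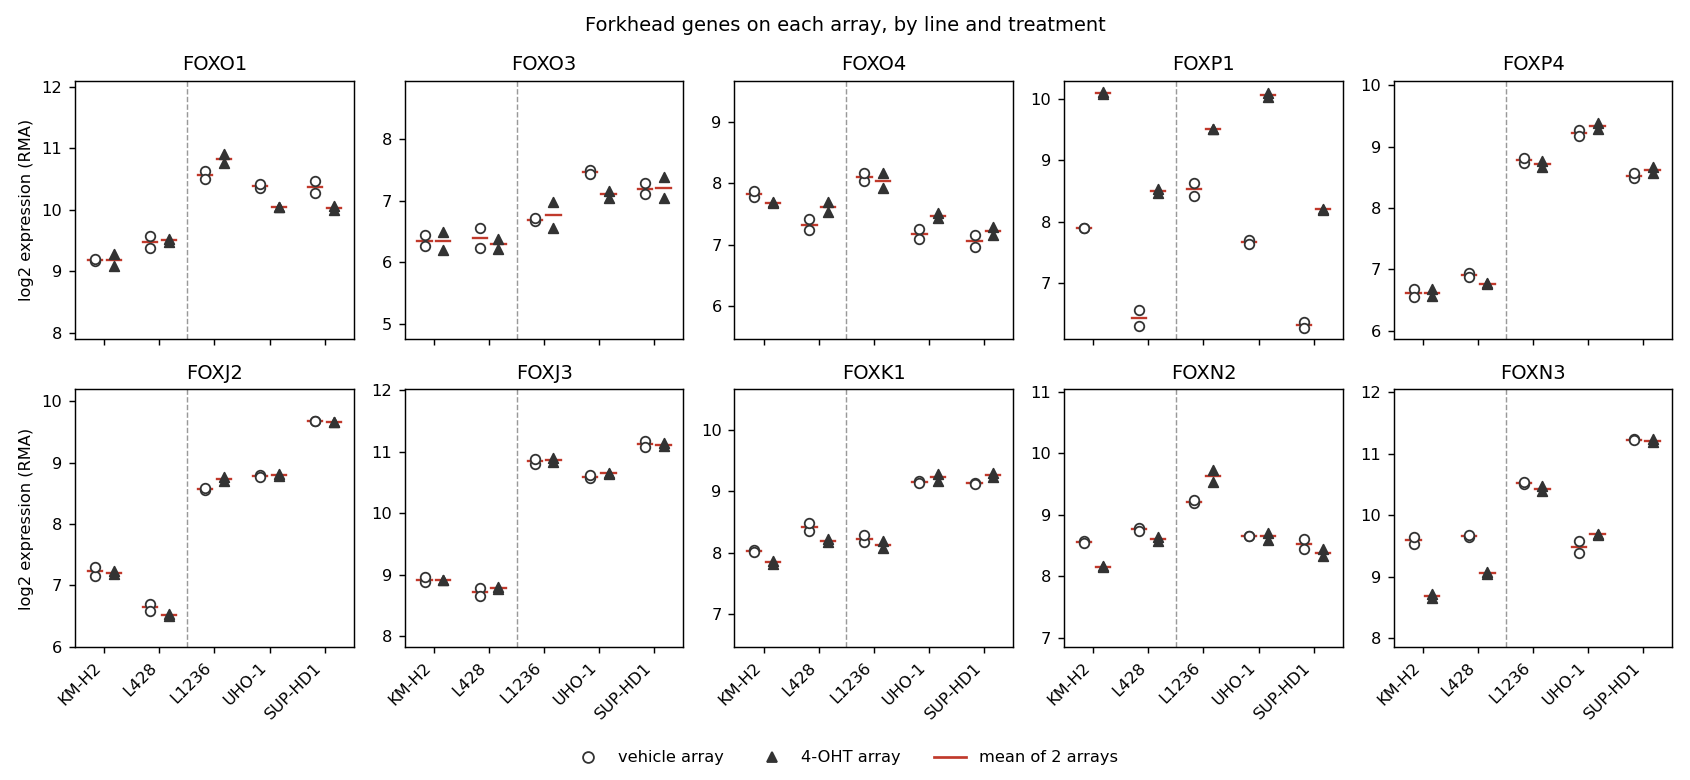
Deposited log2 values of the 10 forkhead genes in the 20 arrays, with 1 panel per gene, the lines along the x axis, open circles for vehicle arrays, filled triangles for 4-OHT arrays and bars for the mean of 2 arrays; every y axis spans the same number of log2 units, and the dashed line separates the 2 sets of arrays that were normalised apart. FOXP1 shows the 4-OHT triangles above the vehicle circles in each of the 5 lines, FOXN3 shows them below in KM-H2 and L428, and FOXJ3 and FOXP4 show them at nearly the same height.

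The size of the FOXP1 rise differed between the lines (limma F test, adjusted p = 3.18e-08). The cells labelled L1236 rose less than every other line: by 1.21 ± 0.122 less than KM-H2 (adjusted p = 7.71e-08), 1.10 less than L428 (5.26e-07), 1.41 less than UHO-1 (1.8e-08) and 0.91 less than SUP-HD1 (1.5e-05). UHO-1 rose more than SUP-HD1 by 0.50 (adjusted p = 0.0169), and the other 5 of the 10 pairs of lines did not pass. Within the set that holds the cells labelled L1236, their vehicle level of FOXP1 was the highest at 8.53, above UHO-1 at 7.67 and SUP-HD1 at 6.32, and their 4-OHT level of 9.51 lay between 8.20 in SUP-HD1 and 10.06 in UHO-1. They are the arrays that held T cell genes, and the part of that in the smaller rise was not tested.

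The 5 genes closest to FOXP1 across the 20 arrays, with each line's mean subtracted, were IGF1R, a growth factor receptor (Pearson r = 0.977), RABGAP1, a regulator of membrane traffic (0.970), ATM, the DNA damage kinase (0.965), LGR4, a receptor of the WNT pathway (0.962) and TUT7, which adds uridines to RNA ends (0.962). These genes were picked for this likeness among all genes tested, and the arrays share the treatment, so the correlations are a description. IGF1R rose on average by 0.71 ± 0.0376 and ATM by 0.81 ± 0.0463. In each of the 5 genes, as in FOXP1, the change was smallest in the cells labelled L1236, where it ran from 0.082 in TUT7 to 0.27 in IGF1R.

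**Figure D2:**
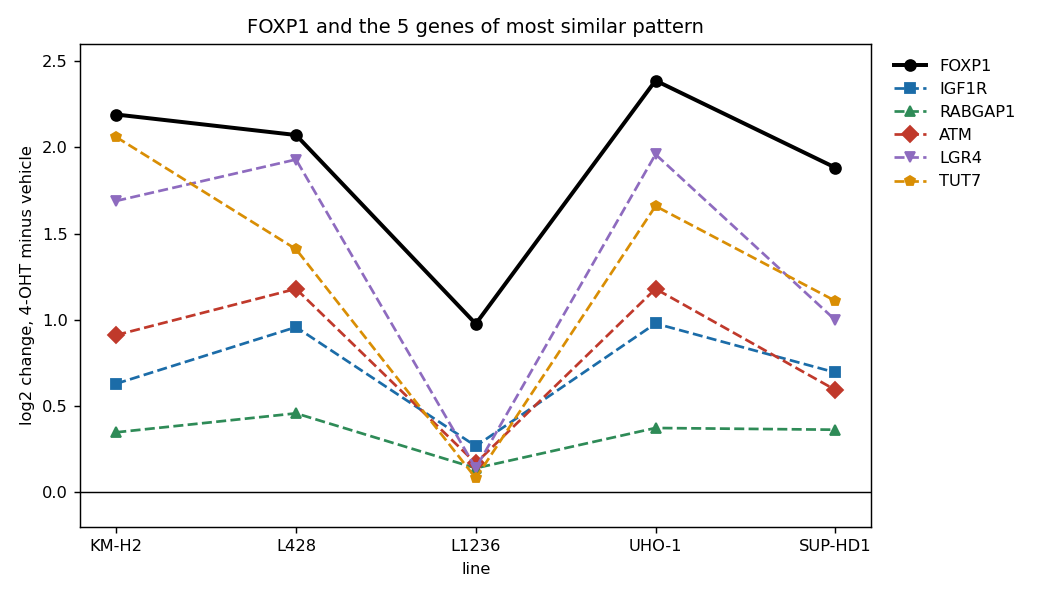
Change with 4-OHT (log2, y axis) in each of the 5 lines (x axis) for FOXP1 and the 5 genes most like it over the 20 arrays, 1 colour per gene, with lines joining the points of a gene only to guide the eye. FOXP1 lies above the other 5 genes in every line, and all 6 are lowest in the cells labelled L1236.

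FOXO1 moved in opposite directions between lines. It rose in the cells labelled L1236, from 10.63 and 10.5 to 10.76 and 10.91 (change of 0.27, adjusted p = 0.0161), and fell in UHO-1, from 10.36 and 10.41 to 10.05 and 10.05 (-0.33, adjusted p = 0.00478). It also fell in SUP-HD1, from 10.27 and 10.46 to 10.06 and 9.99 (-0.34, adjusted p = 0.0104). In those 3 lines the arrays of the 2 treatments did not overlap. In KM-H2 the vehicle arrays held 9.17 and 9.21 and the 4-OHT arrays 9.08 and 9.28, and in L428 they held 9.37 and 9.58 and then 9.48 and 9.53, so that the treatments overlapped in both. The change differed between lines (limma F test, adjusted p = 0.00044), and the cells labelled L1236 differed from UHO-1 by 0.60 ± 0.113 (adjusted p = 0.000477) and from SUP-HD1 by 0.61 (0.000586). L428 differed from UHO-1 by 0.36 (adjusted p = 0.0302) and from SUP-HD1 by 0.37 (0.0338). The calls rested on single arrays: the rise was lost without vehicle 2 (adjusted p = 0.169) or 4-OHT 2 (0.229) of the cells labelled L1236, the fall in UHO-1 when vehicle 2 was dropped (0.0519), and the fall in SUP-HD1 without vehicle 2 (0.168) or 4-OHT 2 (0.132). The average over the lines, -0.078 ± 0.0358, did not pass (adjusted p = 0.0925), and it was -0.165 without the cells labelled L1236 (adjusted p = 0.00187), -0.104 without L428 (0.0451), -0.135 over the set of 12 arrays alone (0.0261) and 0.00689 over KM-H2 and L428 alone (0.948). It also passed without any 1 of KM-H2 4-OHT 2 (0.0341), L428 vehicle 1 (0.0328), labelled L1236 4-OHT 2 (0.0487) and SUP-HD1 vehicle 1 (0.032). Whether the FOXO1 probe set also reads the transcript of the fusion protein was not determined.

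FOXO3, the paralog best known for its part in longevity and in stem cells, passed in no line. Its largest change was in UHO-1, from 7.5 and 7.44 to 7.05 and 7.16 (-0.36 ± 0.146, adjusted p = 0.0698), without overlap between the treatments. That value passed without 4-OHT 1 (adjusted p = 0.0481) or 4-OHT 2 (0.0484) of the cells labelled L1236, and in a fit of the 4 UHO-1 arrays alone (0.0131). In the other 4 lines FOXO3 arrays lay between 6.19 and 7.38 with adjusted p of 0.693 or above, and the average was -0.077 ± 0.0651 (adjusted p = 0.394). A further probe set is annotated to both FOXO3B and FOXO3 and so lies outside the rule. Its values ran from 8.27 to 11.73, above the 6.19 to 7.5 of the single-symbol probe set, and its SE was smaller. It read -0.25 ± 0.0647 in KM-H2 (adjusted p = 0.00547) and 0.34 in L428 (0.000252), and the other lines did not pass. The single-symbol and the shared probe set thus gave different calls, and which transcript the shared one reads is not known here.

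FOXO4, the member of the subfamily on the X chromosome, was called in L428 and UHO-1 only. It was higher with 4-OHT in L428, from 7.23 and 7.42 to 7.69 and 7.53 (0.28 ± 0.106, adjusted p = 0.0494), and in UHO-1, from 7.26 and 7.09 to 7.43 and 7.52 (0.30, adjusted p = 0.0452). Both values lay close to the threshold. The L428 call was lost in 16 of 30 alternatives: without L428 vehicle 1 (adjusted p = 0.354) or 4-OHT 1 (0.318), and, at 0.05 to 0.0587, without any 1 array of KM-H2 or UHO-1 or either 4-OHT array of SUP-HD1, besides 4 other settings. The call in UHO-1 failed in 15 of 30: without its vehicle 2 (adjusted p = 0.29), 4-OHT 2 (0.211), 4-OHT 1 (0.0921) or vehicle 1 (0.0527), without any 1 array of KM-H2 or either 4-OHT array of SUP-HD1 (0.0511 to 0.0533), and in 5 other settings. In KM-H2 FOXO4 was at 7.78 and 7.87 with vehicle and 7.69 and 7.67 with 4-OHT (-0.14, adjusted p = 0.433), and it passed in neither SUP-HD1 nor the cells labelled L1236. The change differed between lines (limma F test, adjusted p = 0.0497), and this too was lost in 19 of 31 alternatives, 13 of which left out 1 array (adjusted p up to 0.126). KM-H2 differed from L428 by -0.42 ± 0.15 (adjusted p = 0.0448) and from UHO-1 by -0.44 (0.0469). The average of 0.11 ± 0.0476 did not pass (adjusted p = 0.0787) but did without the cells labelled L1236 (0.152, adjusted p = 0.0202), without KM-H2 (0.171, 0.0244), and without any 1 of L428 vehicle 2 (0.0462), labelled L1236 4-OHT 2 (0.0319) and SUP-HD1 vehicle 1 (0.0407). It passed as well with median centring (0.1155, adjusted p = 0.0461) and cyclic loess (0.1416, 0.0257).

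FOXN3, a repressor linked to cell cycle checkpoints, fell in KM-H2 and L428 and was not called lower in the other lines. In KM-H2 it went from 9.53 and 9.65 to 8.66 and 8.73, a change of -0.90 ± 0.0633 (adjusted p = 1.27e-10). In L428 it went from 9.64 and 9.69 to 9.08 and 9.05, a change of -0.60 (adjusted p = 1.12e-07). These are the 2 lines normalised together, so that the set and the lines cannot be told apart, although each change is measured within its line. In UHO-1 FOXN3 was higher with 4-OHT, from 9.57 and 9.39 to 9.7 and 9.68 (0.21, adjusted p = 0.0214). When UHO-1 vehicle 2 (adjusted p = 0.303), 4-OHT 1 (0.1) or 4-OHT 2 (0.0784) was left out the rise did not pass, nor did it under quantile normalisation (0.108). In SUP-HD1 it held 11.24 and 11.22 and then 11.24 and 11.19 (-0.014, adjusted p = 0.958), and in the cells labelled L1236 it held 10.51 and 10.55 and then 10.48 and 10.39 (-0.091, adjusted p = 0.375). The lines differed (limma F test, adjusted p = 4.33e-09), and 8 of the 10 pairs passed. KM-H2 differed from UHO-1 by -1.11 ± 0.0896 (adjusted p = 3.74e-09) and from L428 by -0.30 (0.0178). The average of -0.28 ± 0.0283 passed (adjusted p = 3.68e-08), at -0.327 without the cells labelled L1236. It was -0.75 over KM-H2 and L428 alone (adjusted p = 1.93e-08) and 0.0342 over the other 3 lines alone (0.533), so the average describes neither set.

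FOXN2, of the same subfamily, fell in KM-H2 and rose in the cells labelled L1236. In KM-H2 it went from 8.58 and 8.54 to 8.14 and 8.17 (-0.40 ± 0.0784, adjusted p = 0.000428). In the cells labelled L1236 it went from 9.2 and 9.23 to 9.73 and 9.54 (0.42, adjusted p = 0.000293). In both the treatments did not overlap, and both calls held in all alternatives run. L428 read -0.15 (adjusted p = 0.161), SUP-HD1 -0.14 (0.398) and UHO-1 held 8.65 and 8.66 and then 8.6 and 8.7. The change differed between lines (limma F test, adjusted p = 5.19e-05), by -0.82 ± 0.111 between KM-H2 and the cells labelled L1236 (adjusted p = 5.65e-06). On average FOXN2 did not pass (-0.057 ± 0.035, adjusted p = 0.223), and without the cells labelled L1236 it did, at -0.176 (0.0007). Over KM-H2 and L428 alone it was -0.278 (adjusted p = 0.000326), and over the other 3 lines 0.0906 (0.208).

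FOXK1, which binds metabolic and autophagy genes as a repressor, passed in L428 alone, from 8.35 and 8.47 to 8.22 and 8.17 (-0.22 ± 0.074, adjusted p = 0.0272). That call was lost without L428 vehicle 2 (adjusted p = 0.243), 4-OHT 1 (0.0545) or 4-OHT 2 (0.148) and with cyclic loess (0.0734). KM-H2 read -0.18 (adjusted p = 0.0972), from 8.03 and 8 to 7.87 and 7.81, while SUP-HD1 read 0.14 (0.385), from 9.13 and 9.12 to 9.3 and 9.23. L428 differed from SUP-HD1 by -0.36 ± 0.105 (adjusted p = 0.0249), the only pair that passed, and the F test gave an adjusted p of 0.0241. The F test did not pass without L428 vehicle 2 (0.0581) or 4-OHT 2 (0.0506), UHO-1 4-OHT 1 (0.0506) or SUP-HD1 4-OHT 1 (0.0728). On average FOXK1 did not pass (-0.056 ± 0.0331, adjusted p = 0.202), and it did over KM-H2 and L428 alone (-0.198, 0.00791) and without SUP-HD1 (-0.104, 0.0419).

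FOXJ2, FOXJ3 and FOXP4 passed in no line, although all were well above the floor. FOXJ3, a transcription factor known from muscle and sperm development, changed by -0.0094 to 0.066, and in KM-H2 it held 8.88 and 8.96 with vehicle and 8.91 and 8.91 with 4-OHT. With cyclic loess FOXJ3 passed in L428 (0.159, adjusted p = 0.0203) and on average (0.058, 0.0489). FOXP4, a partner of FOXP1 in heterodimers, changed by -0.14 to 0.12, with 9.26 and 9.17 and then 9.28 and 9.38 in UHO-1. Its average change of 0.0040 ± 0.0372 (adjusted p = 0.951) stood beside the 1.90 of FOXP1. FOXJ2 changed most in the cells labelled L1236, from 8.55 and 8.58 to 8.76 and 8.7 (0.17, adjusted p = 0.127), and this value passed under 3 other scalings (0.0108 to 0.0404). With cyclic loess its change also differed between lines (F test, adjusted p = 0.0362). The arrays of SUP-HD1 held 9.67 and 9.68 and then 9.66 and 9.66.

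**Figure D3:**
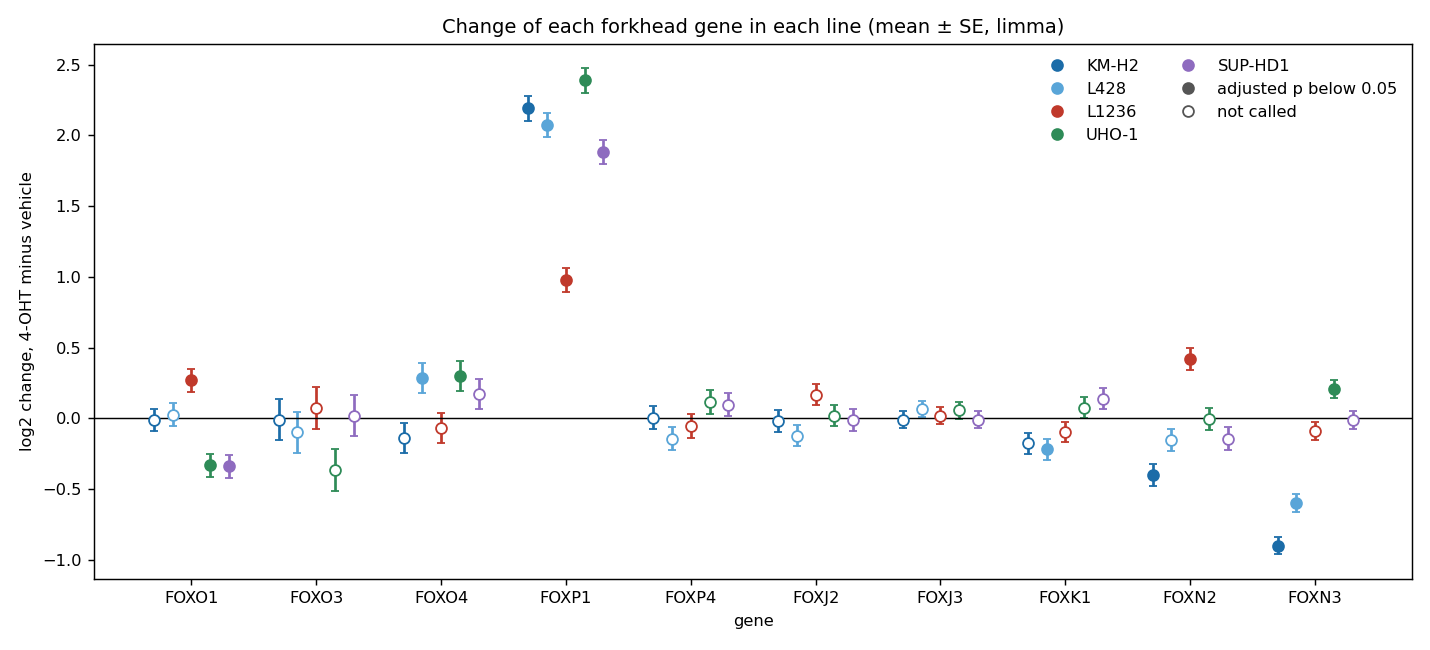
Change with 4-OHT (log2, y axis) ± SE of the fit for the 10 genes (x axis) in each of the 5 lines, with 1 colour per line and red for the cells labelled L1236; filled symbols have an adjusted p below 0.05 and open ones do not. FOXP1 lies from 0.98 to 2.39 with every symbol filled, FOXN3 spreads from -0.90 to 0.21, and FOXO3, FOXP4, FOXJ2 and FOXJ3 have no filled symbol.

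On average over the lines 2 of the 10 members, FOXP1 and FOXN3, were called, against 38.6% of all genes. In single lines 3 of 10 were called in KM-H2 (22.3% of all genes), 4 in L428 (29.5%), 2 in SUP-HD1 (6.03%), 4 in UHO-1 (24.5%) and 3 in the cells labelled L1236 (23.1%). By direction, 1 was higher and 2 lower in KM-H2 (10% and 12.3% of all genes), 2 and 2 in L428 (12% and 17.5%), 3 and 0 in the cells labelled L1236 (8.25% and 14.9%), 3 and 1 in UHO-1 (13.4% and 11.1%), and 1 and 1 in SUP-HD1 (3.68% and 2.35%). On average 1 was higher and 1 lower (17.4% and 21.2%). Arrays of both treatments did not overlap for 1 gene higher and 4 lower in KM-H2 (28% and 30% of all genes), for 2 and 5 in L428 (27.7% and 32.4%), for 4 and 1 in the cells labelled L1236 (20.9% and 28.6%), for 6 and 2 in UHO-1 (31.1% and 39.5%) and for 4 and 2 in SUP-HD1 (19.1% and 25.4%). Absence of overlap in 1 line was thus common among all genes. The change differed between lines for 6 of 10 by the F test, against 42.7%. Between pairs of lines, the response of KM-H2 differed from that of L428 for 2 members (22.9% of all genes), of the cells labelled L1236 for 3 (24.1%), of UHO-1 for 3 (17.5%) and of SUP-HD1 for 1 (12.9%). The response of L428 differed from that of the cells labelled L1236 for 3 members (19.9%), of UHO-1 for 2 (19.4%) and of SUP-HD1 for 3 (13%). Those cells differed from UHO-1 for 4 (25.7%) and from SUP-HD1 for 3 (14.1%), and UHO-1 from SUP-HD1 for 1 (4.04%). FOXO1, FOXN2 and FOXN3 were called higher in at least 1 line and lower in at least 1 other, as 8.12% of all genes were, and FOXO3, FOXP4, FOXJ2 and FOXJ3 were called in none of the 5 lines, as 40.7% of all genes were. The count of 4 in UHO-1 was 1 without UHO-1 vehicle 2 and 2 without either of its 4-OHT arrays, that of 4 in L428 was 2 without L428 4-OHT 1, and that of 2 in SUP-HD1 was 1 without SUP-HD1 vehicle 2 or 4-OHT 2. The count of 2 on average was 5 without the cells labelled L1236 and 4 without either labelled L1236 4-OHT 2 or SUP-HD1 vehicle 1. The median average change of the 10 was -0.026, against -0.0248 over all genes.

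The vehicle arrays give the level of each gene before activation, in order within each set. FOXP1 was higher in KM-H2 than in L428 by 1.47 ± 0.0862 (adjusted p = 6.35e-13), and in the other set fell from the cells labelled L1236 at 8.53 to UHO-1 at 7.67 and SUP-HD1 at 6.32, with both steps past the test (adjusted p = 7.78e-09 and 2.92e-12). FOXJ2 ran the other way in that set, at 9.67 in SUP-HD1, 8.78 in UHO-1 and 8.56 in the cells labelled L1236. FOXN3 was at 11.23 in SUP-HD1, 10.53 in the cells labelled L1236 and 9.48 in UHO-1. The FOXO1 level was lower in KM-H2 than in L428 (-0.287, adjusted p = 0.00368) and higher in the cells labelled L1236 than in SUP-HD1 (0.2006, 0.0358). FOXO1 did not differ beyond its spread between the cells labelled L1236 and UHO-1 (adjusted p = 0.0601) or between UHO-1 and SUP-HD1 (0.858), and FOXO3 did not between KM-H2 and L428 (0.848) or between UHO-1 and SUP-HD1 (0.118). FOXO4, FOXK1 and FOXN2 did not differ between UHO-1 and SUP-HD1 (0.379, 0.841 and 0.174), and FOXN3 did not between KM-H2 and L428 (0.377). Of the 10 genes, 8 differed between KM-H2 and L428 (54.2% of all genes), 9 between the cells labelled L1236 and UHO-1 (56.8%), 10 between them and SUP-HD1 (57.5%) and 5 between UHO-1 and SUP-HD1 (53.8%).

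Of 34 other forkhead genes, 29 had a probe set of 1 symbol and 28 reached the floor in at least 2 arrays. On average over the lines 1 rose, 2 fell and 25 did not pass, against 17.4% higher and 21.2% lower of all genes. The median was -0.0454, against -0.0248 over all genes. FOXP2, known for its part in speech and brain development, rose by 0.28 ± 0.0541 (adjusted p = 2e-04) with opposite changes by line. In KM-H2 it fell from 7.1 and 7.14 to 5.8 and 6.2 (-1.12 ± 0.121, adjusted p = 1.69e-07), and in UHO-1 it rose from 5.11 and 5.06 to 6.91 and 6.98 (1.86, adjusted p = 1.39e-10). It was also called higher in L428 (0.385, adjusted p = 0.0178), where its arrays held 4.12 and 4.22 and then 4.47 and 4.64. There, in SUP-HD1 and in the cells labelled L1236 it stayed below a log2 value of 5. Its average was -0.368 over KM-H2 and L428 alone (0.00719) and -0.113 without UHO-1 (0.194). FOXM1, a driver of mitotic genes, fell by 0.21 on average (adjusted p = 1.39e-06), by 0.71 in L428 (4.16e-09) and was higher by 0.18 in the cells labelled L1236 (0.0295). FOXA2, a factor of endoderm and liver, read -0.22 ± 0.0706 (adjusted p = 0.0152) and did not pass without KM-H2 (0.143) or without UHO-1 (0.209).

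In UHO-1, 10 of the 28 fell and 2 rose, with a median of -0.264 against -0.0345 over all genes, of which 11.1% fell and 13.4% rose. These counts moved with the processing. With cyclic loess 3 fell and 1 rose, and leaving out 1 UHO-1 array gave 4 falls and 2 rises without vehicle 1, 1 and 1 without vehicle 2, 3 and 1 without 4-OHT 1 and 4 and 1 without 4-OHT 2. Over all genes, median centring turned the split in UHO-1 from 2118 higher and 1760 lower to 1857 and 2336. In UHO-1 genes with a mean log2 value under 7 in the vehicle arrays had a median change of -0.138, against 0.0279 from 7 to 9 and 0.0416 from 9 upwards. The vehicle arrays also enter the change itself, so the grouping is not independent of it. The part of the low signal in the counts of the list was not tested.

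**Figure D4:**
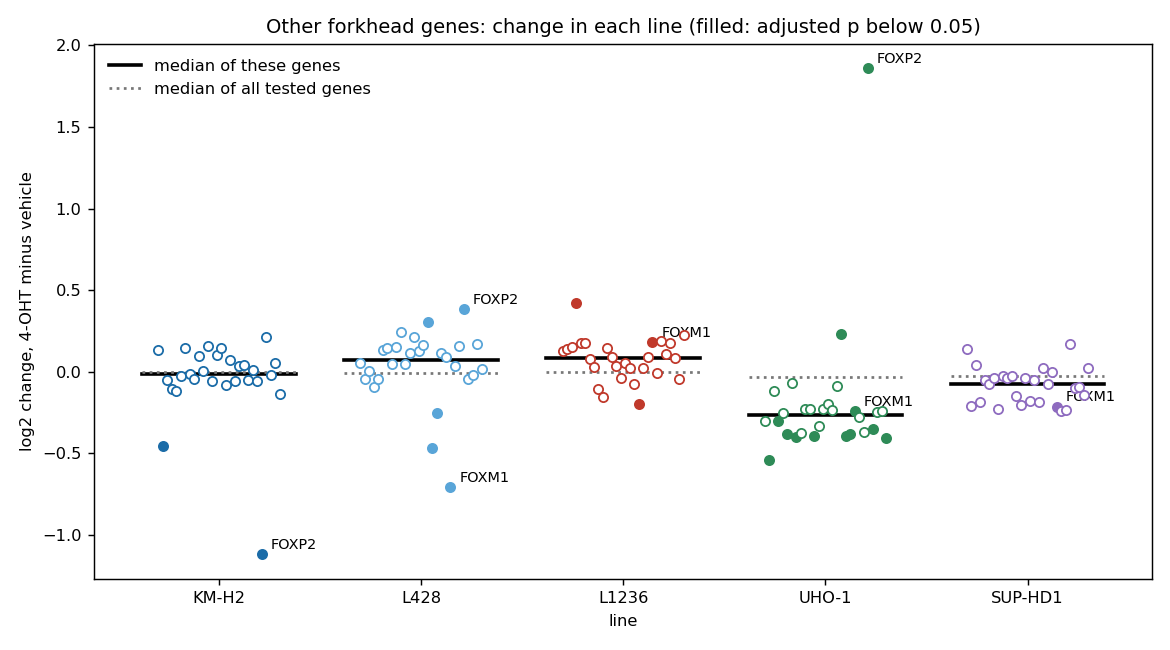
Change with 4-OHT (log2, y axis) in each of the 5 lines (x axis) for the 28 other forkhead genes tested, 1 point per gene, filled where the adjusted p is below 0.05, with the median of the list (solid bar) and of all genes tested (dotted bar). The list's median lies at -0.264 in UHO-1 against -0.0345 over all genes, and FOXP2 lies at 1.86 there and at -1.12 in KM-H2.

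The genes that act on FOXO proteins were read from a list of 33, of which 29 were tested. On average 13 rose, 8 fell and 8 did not pass, against 17.4% and 21.2% of all genes, with a median of 0.0547 against -0.0248. SGK1, a kinase that phosphorylates FOXO as AKT does, rose by 0.85 ± 0.0475 (adjusted p = 2.31e-12) and was called higher in all 5 lines, as was STK4, a kinase of the Hippo pathway that phosphorylates FOXO (0.46 ± 0.0237, adjusted p = 5.81e-13). EP300, an acetyltransferase, rose by 0.38 (adjusted p = 1.13e-08) and was called in 4 lines. SKP2, a ubiquitin ligase subunit that targets FOXO1, fell by 0.39 (adjusted p = 4.03e-10) and was called lower in all 5. The methyltransferase SETD7 rose by 0.59 on average (adjusted p = 3.59e-11) but fell by 0.381 in the cells labelled L1236 (adjusted p = 0.00221). MAPK8, the JNK kinase, rose by 0.44 (adjusted p = 5.06e-09) and was called in 3 lines, at 1.34 in KM-H2. Without the cells labelled L1236, 12 rose and 10 fell. The regulators thus held members that rose and members that fell.

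Of 12 proteins that work with forkhead factors as corepressors or coactivators, 10 were tested, of which 1 rose, 4 fell and 5 did not pass on average, against 17.4% higher and 21.2% lower of all genes. The median was -0.0508, against -0.0248 over all genes. The histone deacetylase HDAC2 read -0.195 (adjusted p = 3.68e-06) and MTA1, a subunit of the same complexes, -0.189 (9.17e-05). By line, MTA1 was called lower in L428 alone (-0.305, adjusted p = 0.00313). HDAC2 was called lower only in L428 and the cells labelled L1236, and its change differed between lines (limma F test, adjusted p = 0.0287). CTBP1, a corepressor, read -0.092 (adjusted p = 0.00747) and did not pass with cyclic loess (0.0849) or without KM-H2 (0.0987), L428 (0.0556) or UHO-1 (0.136). The value of SIN3A, 0.0782 (adjusted p = 0.0451), lay at the threshold. It did not pass in 22 of the alternatives, 14 of which left out 1 array, and was -0.0269 over KM-H2 and L428 alone (0.739).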

How the data were processed

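RNA was hybridised to Human Gene 1.0 ST arrays from Affymetrix. The authors deposited log2 values, obtained by robust multichip averaging (RMA) in Expression Console per the labels; the version is not given in the sources used here. Sorted values differ by at most 0.253 and 0.204 between arrays of a set and by at least 0.712 between the 2 sets. RMA compresses changes of low signals, so that folds of weak genes can be too small, and arrays have no read depth: their number, 2 per group, limits the precision.

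Of 33268 probe sets, 19457 had 1 gene symbol, 1751 several and 12060 none listed. The probe set of highest mean stood for a gene, and 15850 of 18416 genes with a log2 value of at least 5 in at least 2 arrays were tested. limma 3.58.1 (R 4.3.3) fitted 10 group means with a trended prior, and gave each line's change of 4-OHT minus vehicle, their average, the F test between lines, 10 pairs of responses and 4 vehicle pairs. Benjamini-Hochberg adjustment ran over all genes tested in each comparison, and "called" or "passed" means an adjusted p below 0.05. The script was tested on simulated data. Promoters came from RefSeq (GRCh38.p14) and figures from matplotlib 3.10.9.

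The members and lists were chosen with earlier results of these data known. Besides the members, the genes named are those called on average with the largest change in each list (at most 6, 6 and 4) and the 5 most correlated with FOXP1. Those of FOXO1 and FOXO3 are in the closing section. Alternatives were other scalings, floors and priors, single lines or sets, a block for replicate number and leaving out each array or line.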

Additional observations from a re-analysis of the deposited data

Results flagged for a closer look

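The change with 4-OHT differed between the 5 lines for 6 of the 10 genes by limma's F test, against 42.7% of all genes tested. The adjusted p was 4.33e-09 for FOXN3, 3.18e-08 for FOXP1, 5.19e-05 for FOXN2, 0.00044 for FOXO1, 0.0241 for FOXK1 and 0.0497 for FOXO4. Without the cells labelled L1236, an alternative chosen after seeing the data, the test passed for 5 of them, and FOXO4 did not pass (0.0524).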

How the results depend on the processing

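Over the 69 results for single genes, 2144 values came from alternatives: 2035 kept their side of the threshold (57 of them, not called, changed sign), 81 lost the call, 27 gained one and 1 reversed. The reversal was the FOXN3 average, 0.0342 (adjusted p = 0.533) over L1236, UHO-1 and SUP-HD1 alone. The FOXP1 calls, those of FOXN2 in KM-H2 and the cells labelled L1236 and those of FOXN3 in KM-H2 and L428 held in all alternatives within a line. The count of members called on average, 2, became 4 with cyclic loess, 4 over KM-H2 and L428 alone, 5 without the line L1236 and 0 with the 5 lines as replicates, where 1 member and 2496 genes had an unadjusted p under 0.05 and the FOXP1 average of 1.902 had an adjusted p of 0.0596. Without a trended prior, 1 member was called in SUP-HD1 and 2 in UHO-1. With its 4 arrays alone, L428 gave 2. The change differed between lines for 2 members over KM-H2 and L428 alone and for 3 over the other lines alone.

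Leaving out each array in turn gave 2 to 4 members called on average and 4 to 6 differing between lines; by line it gave 1 to 5 in UHO-1, 1 to 2 in SUP-HD1, 2 to 4 in L428, 2 to 3 in L1236 and 3 to 3 in KM-H2, and the FOXP1 average ran from 1.876 to 1.928.

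Whether replicate numbers pair the samples is not settled. Deviations of same-numbered arrays correlated at -0.557 in L1236, -0.0822 in KM-H2, 0.0372 in L428, 0.282 in SUP-HD1 and 0.294 in UHO-1. With the number as a block, 2 members were called on average, 2 in SUP-HD1, 2 in L428 and 3 each in UHO-1, KM-H2 and L1236, and 4 differed between lines. The calls lost with the block were FOXO4 and FOXK1 in L428 (0.0775 and 0.053), FOXO4 in UHO-1 (0.0718) and both between lines (0.0918 and 0.0593). Numbers crossed in L1236, chosen after seeing the data, gave 3 members and 4294 genes there, against 3445 genes with the block as numbered.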

Other observations

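The genes most like FOXO1 over the 20 arrays, with each line's mean subtracted, were NAPSB (Pearson r = 0.876), ZSWIM9 (0.872), ZNF469 (0.857), MMP28 (0.854) and VAX2 (0.852). Those most like FOXO3 were MNX1 (0.843), C1QL4 (0.842), ERICH5 (0.839), RAPSN (0.816) and KLHDC7A (0.814). Among the 10 members, FOXK1 and FOXN3 were the most alike pair (0.765), and FOXO1 and FOXO3 gave 0.555. These genes were picked for likeness, and the arrays share lines and treatment.

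ESR1, the gene whose ligand-binding domain is part of the fusion, was at log2 values of 4.5 to 4.8 in KM-H2 and L428, 5.34 to 5.85 in UHO-1 and the cells labelled L1236, and 6.53 to 6.97 in SUP-HD1. KM-H2 and L428 were normalised apart from the other lines, so their ESR1 levels cannot be compared with those of the others. Which transcript this probe set reads was not determined.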
